A study of Homo sapiens with 9 samples.

Results

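The inositol phosphate kinases are the enzymes that add phosphates to soluble inositol phosphates, and 9 genes of this group were chosen by name from a pooled knockout screen: ITPK1, IPMK, IPPK, ITPKA, ITPKB, ITPKC, IP6K1, IP6K2 and IP6K3. Each was targeted by 4 single guide RNAs (sgRNAs), so that they made up 36 of the 3152 sgRNAs and 9 of the 763 genes of the library. The screen used the human rhabdomyosarcoma line RH4, which carries a PAX3 and FOXO1 gene fusion, and the Brunello kinome library, lentiviral vectors that each bring 1 sgRNA to be used with Cas9. Pralatrexate cells were given pralatrexate, a folate analogue that blocks dihydrofolate reductase, at 1.5 nM up to day 10. Vehicle cells grew to day 10 without it. By the study's methods, baseline cells were taken when 72 h of puromycin (0.25 µg/ml) had ended, before 72 h of recovery. The main text of the study gives a longer puromycin selection before that harvest. Each group had 3 libraries. All groups came from RH4 cells infected with the same library at a coverage of 1000. Reads were counted from sgRNA cassettes in genomic DNA, so they track how many cells hold each sgRNA, and the assay measured neither RNA, protein nor the cut itself, so neither the identity of the cells nor the loss of a kinase was checked here. The study names the repeats triplicate cultures in one place and technical replicates in another. The p-values of single sgRNAs and of gene levels thus cover only the spread between libraries, and that spread may be technical.

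Phospholipase C releases inositol trisphosphate from a membrane lipid, and this messenger opens calcium channels of the endoplasmic reticulum. The ITPKA, ITPKB and ITPKC enzymes, IPMK and ITPK1 add further phosphates, and IPPK adds the one that completes inositol hexakisphosphate, a compound found in all human cells and built into several nuclear proteins. The IP6K enzymes turn inositol hexakisphosphate into inositol pyrophosphates, which take part in phosphate balance and energy metabolism.

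Gene positions are GRCh38 spans from GENCODE and not the sites of the cuts. ITPK1 lies on chromosome 14 (92936914 to 93116320, minus strand, 10 coding exons), IPMK on chromosome 10 (58191517 to 58267894, minus strand, 6 coding exons) and IPPK on chromosome 9 (92613183 to 92670131, minus strand, 13 coding exons). The span of IPPK overlaps the protein-coding gene CENPP on the other strand. ITPKA lies on chromosome 15 (41493393 to 41503551, plus strand), ITPKB on chromosome 1 (226631690 to 226739323, minus strand) and ITPKC on chromosome 19 (40717112 to 40740860, plus strand), the last overlapping COQ8B and ACTMAP. IP6K1 (49724294 to 49786542) and IP6K2 (48688003 to 48740353) are on the minus strand of chromosome 3, 983940 bases apart, and IP6K3 is on chromosome 6 (33721662 to 33746905, minus strand).

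Total reads per library were 2468136 to 4227230 with pralatrexate, 3194504 to 4602712 with vehicle and 3483100 to 4431337 at baseline. All 36 sgRNAs of the 9 genes passed the minimum mean of 30 reads, with 140 to 2990 reads each in a library. At the lowest of these counts the counting error alone is 8.45%. The spread between libraries of a group beyond counting error, estimated by edgeR as 1 value over all sgRNAs, is 13.2%. Levels are given in reads scaled to library size (CPM), and the level of a gene is the mean log2 CPM of its 4 sgRNAs. Changes on the log2 scale are means over the sgRNAs of a gene with the SD over those sgRNAs. A gene was called depleted or enriched at a false discovery rate (FDR) under 0.05 by rank aggregation of edgeR p-values. Its gene p-value compares the ranks of a gene's sgRNAs with random ranks among all sgRNAs. It thus measures how far those sgRNAs rank together and takes them as independent, not the spread between libraries alone.

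The comparison of vehicle cells at day 10 with baseline asks which knockouts were lost while the cells grew without drug. ITPK1 was the one inositol phosphate kinase depleted, at 0.391 of its baseline abundance. IPMK and IPPK stood lower in every vehicle library than in any baseline library without passing the gene test, and the 6 genes of the ITPKA to ITPKC and IP6K families lay between −0.12 and 0.11. With 1 of 9 genes depleted, the count stood beside 7.47% of all genes tested, and 0 of 9 were enriched beside 0.524%. At an unadjusted p of 0.05, 2 of the 9 genes were lower, ITPK1 and IPMK, beside 15.1% of all genes, and 0 were higher, beside 7.86%. The median change of the 9 genes was −0.04, against 0.02 over all 763 genes.

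ITPK1 phosphorylates inositol trisphosphates and tetrakisphosphates and supplies the steps that lead to inositol hexakisphosphate. Its gene level was 6.86, 6.87 and 6.73 log2 CPM in pralatrexate libraries, 6.84, 6.72 and 6.42 in vehicle libraries and 7.96, 8.13 and 7.98 in baseline libraries. The day 10 libraries of both treatments lay more than 1 log2 unit below every baseline library, while pralatrexate and vehicle libraries overlapped. As mean CPM over its sgRNAs, ITPK1 stood at 126 ± 3.49 with pralatrexate, 118 ± 17.3 with vehicle and 263 ± 17.3 at baseline (SD, n = 3 each).

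In vehicle cells ITPK1 fell by 1.36 ± 0.91 against baseline (SD over 4 sgRNAs; FDR 0.0299 by rank aggregation of edgeR p-values), the 37th lowest change of the 763 genes. Its sgRNAs 1, 2 and 4 fell, to log2 changes of −1.16 ± 0.20, −1.40 ± 0.18 and −2.54 ± 0.25 (SE; edgeR FDR 4.36e-05, 6.94e-07 and 3.71e-09). sgRNA 3 stood at −0.33 ± 0.17 (FDR 0.183). The 4 sgRNAs thus ranged from 17.2% to 79.5% of baseline, and 3 of them passed on their own.

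The sgRNA of ITPK1 that fell furthest, sgRNA 4, had 190, 169 and 180 reads in pralatrexate libraries, 176, 178 and 140 in vehicle libraries and 926, 1052 and 873 in baseline libraries. sgRNA 3, which moved least, had 763, 435 and 913 reads in pralatrexate libraries, 720, 1052 and 675 in vehicle libraries and 908, 1216 and 890 in baseline libraries. Day 10 counts of sgRNA 4 were thus below every baseline count, whereas those of sgRNA 3 overlapped the baseline counts before scaling for depth (after scaling, the pralatrexate libraries lay below baseline and the vehicle libraries still overlapped it). Without sgRNA 4 the mean of the other 3 was −0.96 and ITPK1 was not called (FDR 0.145), a test on fewer sgRNAs, added after the values were seen, in which the sgRNA was picked by its own change so that the mean could only shrink. Leaving out any 1 of the 6 libraries kept the call, with FDR between 0.0210 and 0.0350.

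**Figure D1:**
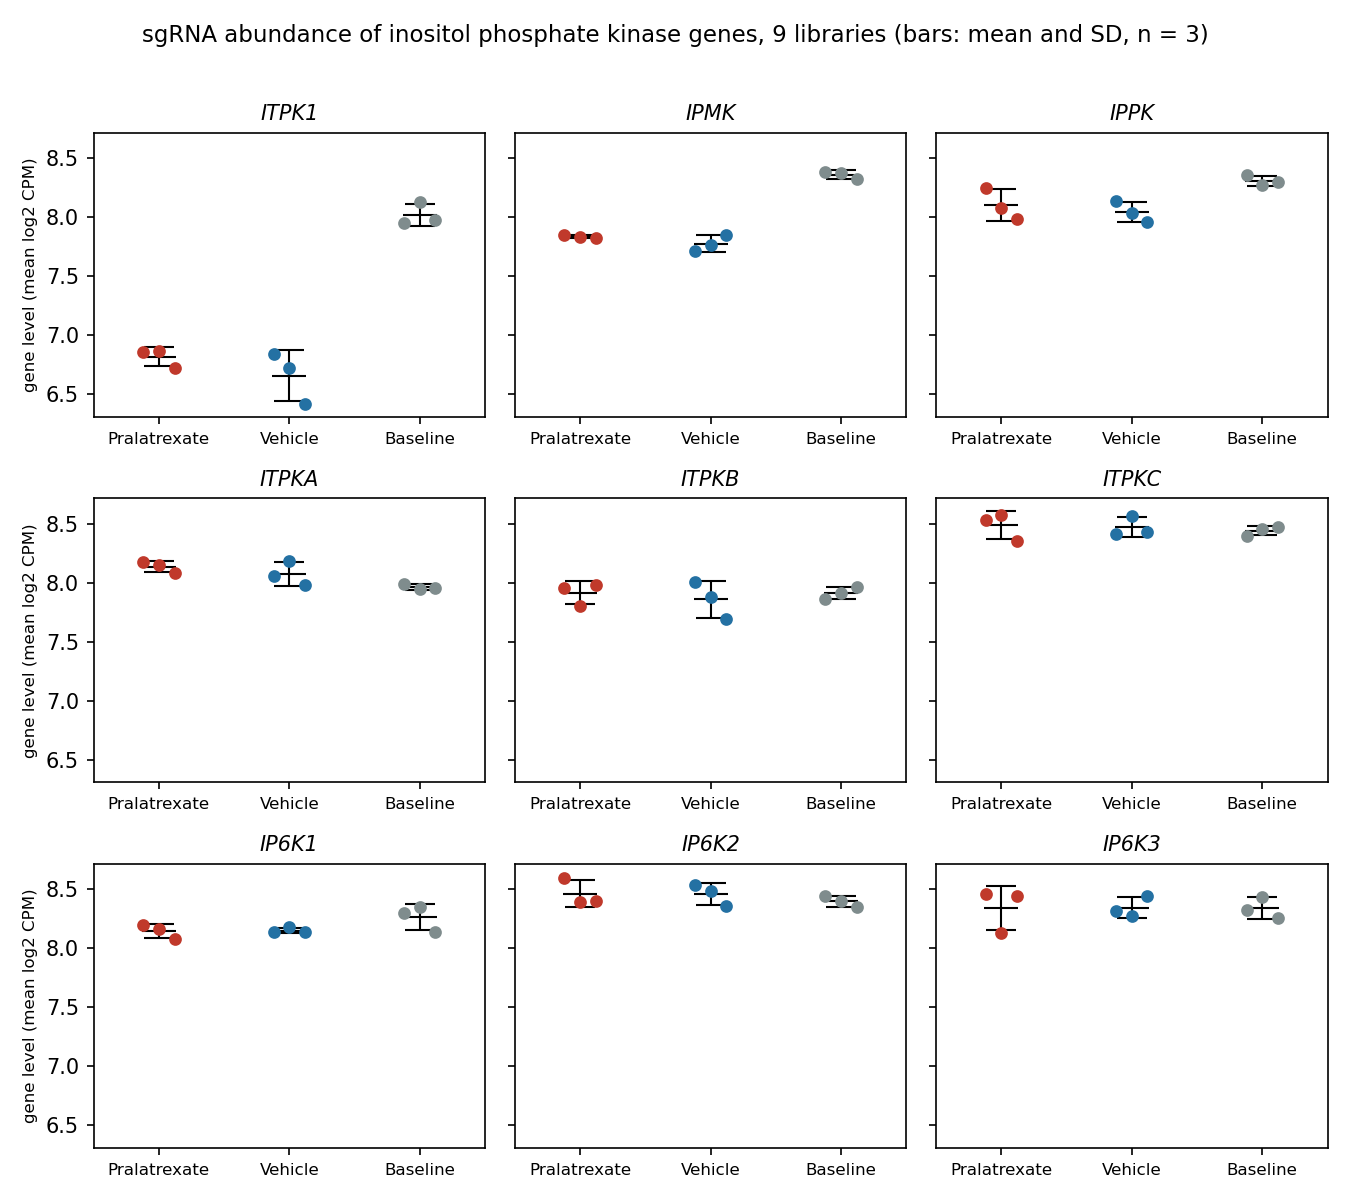
Gene level of the 9 inositol phosphate kinases in each library, as mean log2 CPM of 4 sgRNAs on the vertical axis, with the mean and SD of the 3 libraries of a group as bars. ITPK1 lies between 6.42 and 6.87 in the 6 day 10 libraries and between 7.96 and 8.13 at baseline. IPMK shows a smaller gap, and IPPK lies a little below baseline in all 6 day 10 libraries. The other genes lie close to their baseline level, with ITPKA a little above it in the 3 pralatrexate libraries.

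IPMK, the inositol polyphosphate multikinase, acts at several steps of the pathway and can also phosphorylate a membrane phosphoinositide. Its level was 7.85, 7.84 and 7.83 log2 CPM in pralatrexate libraries, 7.71, 7.76 and 7.86 in vehicle libraries and 8.39, 8.38 and 8.32 in baseline libraries. No day 10 library reached the lowest baseline level. The change in vehicle cells was −0.59 ± 0.65 against baseline (SD over 4 sgRNAs), to 0.664 of baseline, the 72nd lowest of 763, and the gene did not pass the rank aggregation (FDR 0.140).

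The sgRNAs of IPMK differed more from each other than those of any inositol phosphate kinase but ITPK1. sgRNA 1 fell by 1.48 ± 0.17 (SE; edgeR FDR 7.92e-08), to 35.9% of its baseline abundance, with 338, 520 and 513 reads in vehicle libraries and 1140, 1421 and 1122 at baseline. sgRNAs 2 and 3 fell, to −0.58 ± 0.17 and −0.38 ± 0.12 (FDR 0.0120 and 0.0194). sgRNA 4 stood at 0.07 ± 0.14 (FDR 0.782). Tests that weigh the mean of the gene rather than the ranks of its sgRNAs called IPMK depleted, at −0.52 for reads summed over sgRNAs in edgeR (FDR 2.81e-08) and at −0.59 for gene means in limma (FDR 1.35e-06). They call 21% and 19.8% of all genes depleted.

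IPPK makes inositol hexakisphosphate, the substrate of the IP6K enzymes. Its level was 8.25, 8.08 and 7.99 log2 CPM in pralatrexate libraries, 8.14, 8.04 and 7.97 in vehicle libraries and 8.36, 8.28 and 8.30 in baseline libraries. Vehicle libraries lay below all baseline libraries by a small margin, and the highest pralatrexate library lay just under the lowest baseline library. The change in vehicle cells was −0.26 ± 0.21 (SD over 4 sgRNAs; FDR 0.633), the 133rd lowest of 763. sgRNA 1 of IPPK fell by 0.52 ± 0.13 (SE; edgeR FDR 0.00504), and the other 3 stood between −0.31 and 0.00 and did not pass. The tests on the gene as a whole called IPPK too, at −0.29 for summed reads in edgeR (FDR 0.00140) and −0.26 for gene means in limma (FDR 0.0164). Those tests call 21% and 19.8% of all genes depleted.

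ITPK1, IPMK and IPPK were the 3 of 9 genes whose vehicle libraries all lay below the baseline libraries, beside 24.4% of all genes, and 0 of 9 lay wholly above, beside 19.5%.

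**Figure D2:**
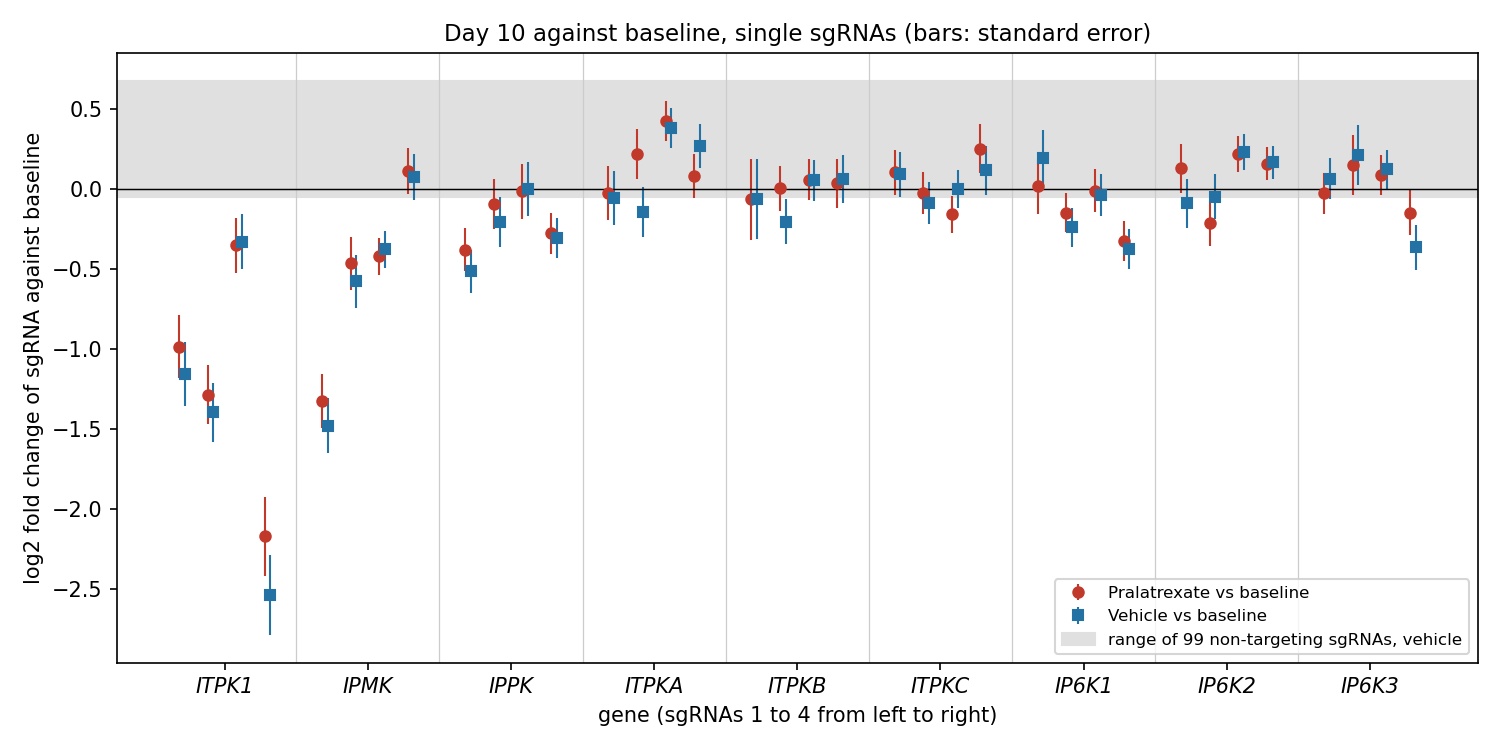
Log2 fold change against baseline (vertical axis) of each of the 4 sgRNAs of the 9 genes, for pralatrexate cells as circles and vehicle cells as squares, with the standard error as bars and the range of the non-targeting sgRNAs in vehicle cells, −0.05 to 0.67, as a grey band. ITPK1 sgRNAs 1, 2 and 4 and IPMK sgRNA 1 lie below −0.9 in both groups, and the others lie between −0.6 and 0.5.

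ITPKA, ITPKB and ITPKC, which phosphorylate the calcium-releasing inositol trisphosphate and are stimulated by calmodulin, stood close to baseline. In vehicle cells they stood at 0.11 ± 0.25, −0.04 ± 0.12 and 0.03 ± 0.09 against baseline (SD over 4 sgRNAs each; FDR 1 for all 3). ITPKA had 1 sgRNA that passed in the upward direction, sgRNA 3, at 0.38 ± 0.12 (SE; edgeR FDR 0.0307), with 1175, 1699 and 1567 reads in vehicle libraries and 1167, 1055 and 1063 at baseline. The other ITPKA sgRNAs stood between −0.15 and 0.27.

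IP6K1, IP6K2 and IP6K3, which make inositol pyrophosphates, stood at −0.12 ± 0.25, 0.06 ± 0.16 and 0.01 ± 0.26 in vehicle cells against baseline (SD over 4 sgRNAs each; FDR 1 for all 3). IP6K1 had the lowest mean of the 6 genes of the ITPKA to ITPKC and IP6K families, and its sgRNA 4 fell by 0.38 ± 0.12 (SE; edgeR FDR 0.0307), with 1235, 1508 and 1586 reads in vehicle libraries and 1851, 2216 and 1469 at baseline. Summed reads called IP6K1 depleted at −0.19 (FDR 0.0369 in edgeR), in a test that calls 21% of all genes depleted. sgRNA 4 of IP6K3 stood at −0.37 ± 0.14 (FDR 0.0671) while the other 3 of that gene lay between 0.06 and 0.21.

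Among single sgRNAs, 8 of the 36, or 22.2%, were lower in vehicle cells than at baseline (edgeR FDR under 0.05 over all sgRNAs), beside 13.2% of all targeting sgRNAs, and 1 was higher, beside 5.22%. The 8 were 3 of ITPK1, 3 of IPMK, 1 of IPPK and 1 of IP6K1. sgRNAs of 1 gene share their target and are not independent.

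The non-targeting sgRNAs, which cut no human gene, did not stay at 0 on this scale. The 99 that were tested had a median change of 0.31 in vehicle cells against baseline, from −0.05 to 0.67, and 38 of them passed as higher. Of the 36 sgRNAs, 35 (97.2%) lay below that median and 19 (52.8%) below the lowest non-targeting sgRNA, against 90.8% and 40.7% of all 3046 targeting sgRNAs. When the libraries were scaled on the non-targeting sgRNAs, the median of all genes moved to −0.30, all 9 genes lay below 0, and ITPKA, ITPKC, IP6K2 and IP6K3, which were above 0 in the main scaling, turned to between −0.31 and −0.20. ITPK1 stood at −1.67 with that scaling and kept its call (FDR 0.0338). In pralatrexate cells against baseline the 99 non-targeting sgRNAs had a median of 0.34, from −0.17 to 0.66, and 35 passed as higher. There, 35 (97.2%) of the 36 sgRNAs lay below that median, against 92.7% of all targeting sgRNAs. Below the lowest non-targeting sgRNA lay 11 (30.6%), close to the 27.7% of all targeting sgRNAs. The cause of the offset of the non-targeting sgRNAs was not tested.

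**Figure D3:**
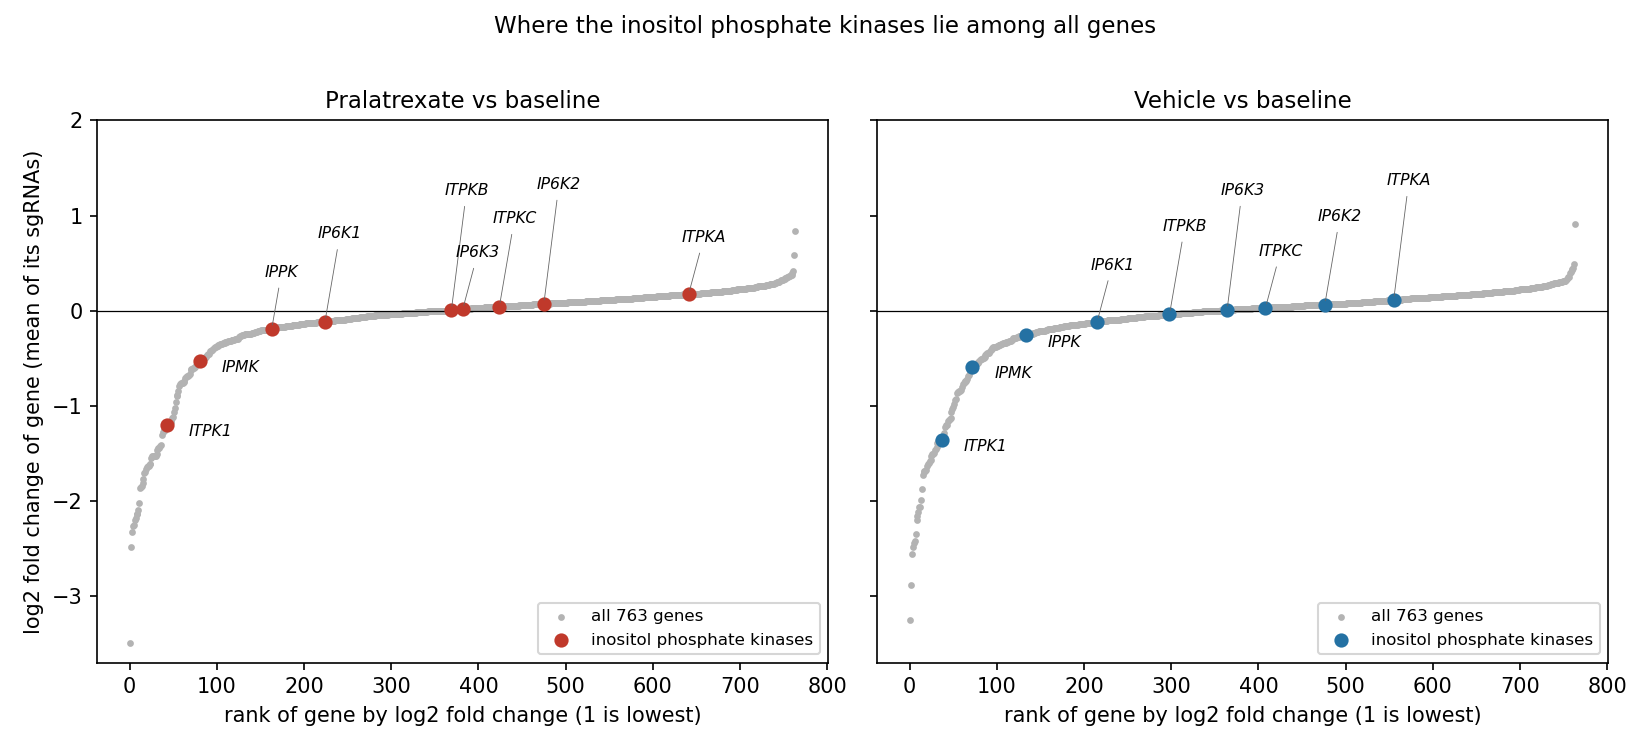
All 763 genes ordered by their log2 fold change against baseline (horizontal axis, rank from the lowest; vertical axis, mean over sgRNAs), for pralatrexate cells on the left and vehicle cells on the right, with the 9 inositol phosphate kinases in colour. ITPK1 is 43rd and 37th from the bottom, IPMK 81st and 72nd, and the other 7 genes rank from 163rd and 133rd upward.

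In pralatrexate cells against the same baseline libraries, ITPK1 was again the one gene called, and since the baseline is shared this is not an independent test. ITPK1 fell by 1.20 ± 0.76 (SD over 4 sgRNAs; FDR 0.0313 by rank aggregation of edgeR p-values), to 0.435 of baseline. IPMK stood at −0.53 ± 0.59 (FDR 0.213) and IPPK at −0.19 ± 0.17 (FDR 0.955). With 1 of 9 genes depleted beside 7.34% of all genes and 0 of 9 enriched beside 0.262%, the counts equalled those in vehicle cells. At an unadjusted p of 0.05, 2 of the 9 were lower, beside 14.8%, and 0 higher, beside 9.04%. The call of ITPK1 was lost without baseline 2 (−1.14, FDR 0.0649), without pralatrexate 2 (−1.24, FDR 0.0751), with scaling on the non-targeting sgRNAs (−1.49, FDR 0.0737) and without sgRNA 4 (−0.88, FDR 0.133).

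The single sgRNAs of ITPK1 in pralatrexate cells stood at −0.99 ± 0.20, −1.29 ± 0.18, −0.35 ± 0.17 and −2.17 ± 0.24 against baseline (SE), in the same order as in vehicle cells. Those of IPMK stood at −1.33 ± 0.17, −0.47 ± 0.17, −0.42 ± 0.12 and 0.11 ± 0.14. Both genes thus had the same sgRNA at the low end in both treatments.

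Libraries did not overlap for 3 genes that were lower with pralatrexate than at baseline, ITPK1, IPMK and IPPK, beside 25.6% of all genes, and for 1 that was higher, ITPKA, beside 20.3%. ITPKA stood at 0.17 ± 0.20 (SD over 4 sgRNAs; FDR 0.963), with levels of 8.18, 8.15 and 8.08 log2 CPM in pralatrexate libraries and 7.99, 7.95 and 7.96 at baseline. The sign of ITPKA turned with scaling on the non-targeting sgRNAs, to −0.12, and among the alternatives run only summed reads in edgeR called it enriched (0.18, FDR 0.0479), a test that calls 16.1% of all genes enriched. Summed reads also called IPMK (−0.48) and IPPK (−0.23) depleted, beside 22.8% of all genes, and limma on gene means called IPMK (−0.53), beside 19.9%. The other 5 genes lay between −0.12 and 0.07. Of the 36 sgRNAs, 7 were lower (edgeR FDR under 0.05), beside 13.5% of targeting sgRNAs, and 1 was higher, sgRNA 3 of ITPKA at 0.42 ± 0.12 (SE; FDR 0.0151), beside 5.02%.

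Setting pralatrexate cells against vehicle cells asks whether loss of a kinase made the cells more or less sensitive to the drug. No inositol phosphate kinase was depleted or enriched, beside 0.655% and 0% of all genes, and none was past an unadjusted p of 0.05 in either direction, beside 3.93% and 5.37%. ITPK1 had the largest mean difference, at 0.16 ± 0.16 (SD over 4 sgRNAs; FDR 0.963), and the other 8 genes lay between −0.00 for IP6K1 and 0.07 for IPPK. In no gene did the 3 pralatrexate libraries stand apart from the 3 vehicle libraries, beside 3.41% of all genes for lower and 3.67% for higher.

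The 95% intervals of the difference in gene level between pralatrexate and vehicle (limma) give the range of differences compatible with these libraries. For ITPK1 the interval ran from −0.04 to 0.36, for IPMK from −0.08 to 0.20 and for IPPK from −0.10 to 0.22. Over the 9 genes the lowest bound was −0.19, for IP6K3, and the highest was the one of ITPK1. Same-numbered day 10 libraries deviated together, so the replicate number was also tried as a block. That block took in the baseline libraries too, although it is not known whether the numbers pair them with day 10. The intervals were then −0.01 to 0.33 for ITPK1, −0.08 to 0.21 for IPMK and −0.08 to 0.21 for IPPK. None of the 9 genes passed with the block (lowest limma FDR 0.741). Within same-numbered libraries ITPK1 differed by 0.02, 0.15 and 0.31 and IPPK by 0.12, 0.04 and 0.02, so that these 2 of 9 genes were higher with pralatrexate in 3 of 3 pairs, beside 13.5% of all genes, and 0 of 9 were lower in all 3, beside 12.6%.

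Single sgRNAs ranged from −0.19 to 0.37 between pralatrexate and vehicle, inside the range of the 99 non-targeting sgRNAs, −0.43 to 0.47. None of the 36 passed (lowest edgeR FDR 0.820), beside 0.0328% of targeting sgRNAs lower and 0% higher. The 2 highest were sgRNA 4 of ITPK1, at 0.37 ± 0.25, and sgRNA 2 of ITPKA, at 0.36 ± 0.16 (SE). The latter was the single one with an unadjusted p under 0.05. sgRNA 2 of ITPKA had 944, 629 and 951 reads in pralatrexate libraries and 660, 876 and 763 in vehicle libraries. After scaling to library size its 3 pralatrexate libraries lay above the vehicle libraries, as did those of sgRNA 4 of IP6K3, at 0.22 ± 0.14 (SE). The share of all sgRNAs that stood apart in this way was not counted.

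**Figure D4:**
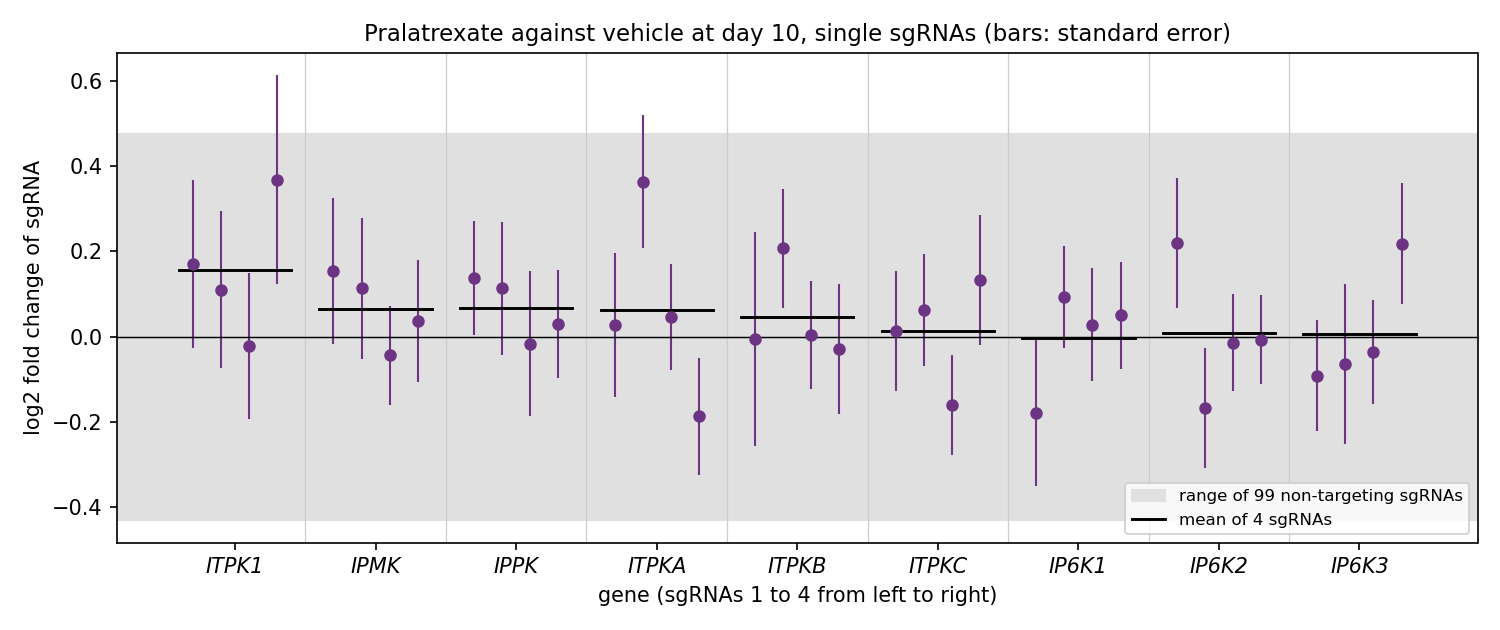
Log2 fold change of pralatrexate over vehicle at day 10 (vertical axis) for the 4 sgRNAs of each gene, with the standard error as thin bars, the mean of a gene as a black line and the range of the non-targeting sgRNAs, −0.43 to 0.47, as a grey band. Every point lies inside that range, and the means of the 9 genes lie between −0.00 and 0.16.

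PPIP5K1 and PPIP5K2 act beside the IP6K enzymes and place a pyrophosphate at another position of inositol hexakisphosphate. In vehicle cells PPIP5K1 stood at −0.22 ± 0.20 against baseline (SD over 4 sgRNAs; FDR 0.899) and PPIP5K2 at −0.26 ± 0.35 (FDR 0.936). Between pralatrexate and vehicle they stood at 0.01 ± 0.05 and −0.14 ± 0.20, and neither was called (FDR 1 and 0.982). In pralatrexate cells against baseline PPIP5K2 stood at −0.40 ± 0.32 (FDR 0.176) and PPIP5K1 at −0.21 ± 0.23 (FDR 0.949). As for IPMK, the tests on the gene as a whole called both PPIP5K genes depleted against baseline in both treatments, with edgeR and limma FDR between 9.03e-06 and 0.0235. Those tests call 19.8% to 22.8% of all genes depleted. In each treatment, 12 of 14 alternatives did not call PPIP5K1, and 12 of 14 did not call PPIP5K2.

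Upstream of phospholipase C, 11 genes of the library were listed as members of the phosphoinositide kinase families. In vehicle cells 1 of the 11 was depleted against baseline, beside 7.47% of all genes, and 0 enriched, beside 0.524%, with a median of 0.05, against 0.02 over all genes. The one depleted was PIP5K1A, which makes the lipid that phospholipase C cuts, and it fell by 0.61 ± 0.12 (SD over 4 sgRNAs; FDR 0.0233). In pralatrexate cells PIP5K1A fell by 0.70 ± 0.26 against baseline (FDR 0.0441), again as 1 of 11, beside 7.34% of all genes, and with a median of 0.04. A count of 1 of 11 is near these shares and is no result about the list. None of the 11 was called between pralatrexate and vehicle. The call of PIP5K1A in vehicle cells was lost in 3 of 14 alternatives, with scaling on non-targeting sgRNAs (−0.93, FDR 0.0823) and without vehicle 1 (−0.56, FDR 0.0682) or vehicle 3 (−0.58, FDR 0.0775). In pralatrexate cells it was lost in 5 of 14, with DESeq2 (FDR 0.0635), with scaling on non-targeting sgRNAs (FDR 0.157) and without baseline 3 (FDR 0.0804), pralatrexate 1 (FDR 0.0692) or pralatrexate 3 (FDR 0.112).

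Of 12 genes for calmodulin and kinases that it controls, 1 was depleted and 0 enriched in vehicle cells against baseline, beside 7.47% and 0.524% of all genes, with a median of 0.00. CAMKK2, which phosphorylates other calmodulin-dependent kinases and the energy sensor AMPK, fell by 0.35 ± 0.17 (SD over 4 sgRNAs; FDR 0.0444). In pralatrexate cells CAMKK2 fell by 0.57 ± 0.15 against baseline (FDR 0.0146), again as 1 of 12, beside 7.34% of all genes and so again near the share over the library, and between pralatrexate and vehicle it stood at −0.22 ± 0.08 (FDR 0.582; 0.0456 without vehicle 3). The call against baseline was kept in 14 of 14 alternatives for pralatrexate cells. For vehicle cells it was lost in 6 of 14, with scaling on non-targeting sgRNAs (FDR 0.0657), with the replicate block (FDR 0.0623) and without baseline 1 (FDR 0.116), baseline 2 (FDR 0.120), vehicle 2 (FDR 0.165) or vehicle 3 (FDR 0.143).

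The 3 genes whose levels followed that of ITPK1 most closely over the 9 libraries were MVK (Pearson r = 0.997), COASY (0.990) and PGK1 (0.989). All 3 were depleted in vehicle cells against baseline, MVK at −2.44 ± 1.16, COASY at −1.50 ± 0.79 and PGK1 at −1.70 ± 0.55 (SD over sgRNAs). The 9 points fall into day 10 and baseline libraries and share scaling and depth with each other, so the correlations are given as a description only. ITPK1 itself was lower at day 10, so genes picked to follow it tend to be lower there too. Their depletion is therefore no separate result.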

How the data were processed

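The authors deposited a table of raw read counts per sgRNA, not normalized, for 9 libraries of genomic DNA from RH4 cells. The submitters' processing notes name Bowtie 1.0.0. For its mismatch settings and the counter the entry is "not given in the sources used here". No molecular identifiers are mentioned there, so PCR copies count as reads. The authors' gene tables from MAGeCK (scores, p-values, FDR, ranks and log2 fold changes) were not used, and neither were guide sequences.

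sgRNAs with a mean under 30 reads were left out (7, of them 1 non-targeting). The others went into edgeR 4.0.16 (TMM scaling, quasi-likelihood test, group as the only term, all 9 libraries) in R 4.3.3. The study used MAGeCK's rank aggregation, which was applied here to one-sided edgeR p-values (those under 0.25 scored), with exact gene p-values and Benjamini-Hochberg adjustment over 763 genes for each direction. Scripts were tested on simulated data. Intervals came from limma 3.58.1 on gene levels (log2 CPM, prior count 2). Other scalings (DESeq2 1.42.0, non-targeting sgRNAs), filters, gene tests and left-out libraries were tried. All 9 genes and their sgRNAs are named, with both PPIP5K genes, list members past FDR 0.05 and the 3 genes most correlated with ITPK1. The genes and lists were chosen with earlier results of these data known.

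Within groups, chi-square over its degrees of freedom between pairs of libraries was 10.7 to 25.8, so none was counted as a repeat of another. Deviations from the group means of same-numbered pralatrexate and vehicle libraries correlated at 0.175, 0.198 and 0.188 over sgRNAs, so the numbers in the labels were taken to pair the day 10 libraries.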

Additional observations from a re-analysis of the deposited data

How the results depend on the processing

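ITPK1 was the one gene called in the vehicle and baseline comparison in most settings, but reads summed over sgRNAs in edgeR gave 4 depleted genes (ITPK1, IPMK, IPPK and IP6K1), limma on gene means gave 3, and leaving out the sgRNA of each gene farthest from 0, a setting added after seeing the data, gave 0. For pralatrexate against baseline the main count of 1 became 0 with scaling on non-targeting sgRNAs, 3 with summed reads (and 1 enriched, ITPKA), 2 with limma (ITPK1 and IPMK) and 0 without the farthest sgRNA. With single libraries left out it was 0 to 1, and 0 without baseline 2 or pralatrexate 2. Over all genes, the gene-level tests gave 160 (summed reads) and 151 (limma) depleted genes in vehicle cells against 57 in the main fit, and 110 and 69 enriched against 4. For pralatrexate against baseline they gave 174 and 152 depleted against 56, and 123 and 75 enriched against 2. Enriched counts of vehicle against baseline were 2 with DESeq2 and without baseline 1, baseline 3 or any vehicle library. For pralatrexate against baseline they were 7 without baseline 3 and 1 without pralatrexate 2. Between pralatrexate and vehicle, 5 genes were depleted, with 2 left without vehicle 2 and 3 without pralatrexate 2, and 1 was enriched with summed reads, with limma and without vehicle 1. The causes were not tested. Of 405 values of the 9 genes under alternatives, 51 had the other sign than the main value, and 0 of those 51 were called. None of the 9 was called between pralatrexate and vehicle in any setting run.

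With the replicate number as a block, ITPK1 stood at −1.36 in vehicle cells (FDR 0.0338) and −1.20 in pralatrexate cells (FDR 0.0349) against baseline, and no call of the 9 genes changed. Of the other genes named, CAMKK2 lost its call in vehicle cells with the block (−0.35, FDR 0.0623). Over all genes 57, 5 and 57 were depleted in vehicle against baseline, pralatrexate against vehicle and pralatrexate against baseline. Same-numbered libraries correlated at 0.07, 0.02 and 0.06 between vehicle and baseline and at 0.02, −0.03 and −0.01 between pralatrexate and baseline. Differently numbered ones correlated at −0.07 to 0.01 and at −0.04 to 0.05. In the study's main text, part of the infected triplicate cultures was harvested early and the rest was treated. Correlations this small do not decide whether the numbers also pair baseline with day 10 libraries.

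Leaving out the sgRNA farthest from 0 picks it by its own change and tests fewer sgRNAs, so the loss of a call there does not show that ITPK1 rests on 1 sgRNA. Counting error was below the spread between libraries for all 36 sgRNAs. Levels are relative to the other sgRNAs of a library, so a change of scaling moves all genes together. The study's methods place a recovery of 72 h between baseline and treatment that its main text does not mention, so it is not certain how long after baseline the day 10 cells were taken.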
